A study of Mus musculus with 3 samples.

Results

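The genes described here are 9 genes of the PI3-kinase pathway, chosen by name from the 32285 genes counted. They are the class I catalytic subunits *Pik3ca*, *Pik3cb*, *Pik3cd* and *Pik3cg*, the regulatory subunits *Pik3r1* and *Pik3r5*, the adaptor *Pik3ap1*, the phosphatase *Inpp5d* and the kinase *Akt1*. They were followed in bone marrow derived macrophages (BMDMs), which are bone marrow cells grown into macrophages in culture, from female C3H/HeN mice aged 6 to 8 weeks. The labels say that marrow was pooled before culture, whereas the study's single-cell methods describe cells of several mice treated independently and pooled at capture, and which applies cannot be told from these sources. The cells were given lipoproteins purified from *Borrelia burgdorferi* (BbLP, 1 µg/mL), the bacterium of Lyme disease, over 1 hour (the LP1 library) or 4 hours (the LP4 library), or were left without lipoprotein (Ctrl, labelled UI and Untreated). By the methods of the study, Ctrl cells received PBS and were collected at 4 hours. LP1 thus has no Ctrl of its own time, so lipoprotein and time cannot be told apart when LP1 is compared with Ctrl. None of the 3 groups carried a transgene or deletion. Wells of each condition were pooled, 3 to a library, before capture on the 10x Genomics platform, so each condition was 1 library, no difference between conditions has a replicate check, and no p-value is given.

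PI3-kinases of class I add a phosphate to a membrane lipid and so make PIP3, which draws AKT and other proteins to the inner face of the plasma membrane. Class IA enzymes pair a catalytic subunit (p110α, p110β or p110δ) with a p85-type regulatory subunit. The class IB enzyme p110γ pairs with p101 or p84 and answers to G protein coupled receptors. SHIP-1, a phosphatase, removes PIP3. In macrophages the pathway acts in phagocytosis, migration and survival, and it shapes the response to Toll-like receptors.

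After filtering, 6071 Ctrl, 5065 LP1 and 4670 LP4 cells were kept, 15806 of 16281 barcodes. They held 35688939, 52475723 and 61402275 unique molecular identifiers (UMIs, each standing for 1 captured mRNA molecule), with a median of 5133, 9343 and 11784 UMIs per cell. Depth therefore differed between conditions, and levels are given as CPM, counts scaled to a total of 1e+06 UMIs per library. Intervals are 95% intervals for counting error only (exact Poisson for CPM, exact conditional binomial for ratios). The limit on mitochondrial UMIs removed 18 Ctrl, 43 LP1 and 273 LP4 cells, and the median mitochondrial share of the kept cells was 1.97%, 2.84% and 3.17%. Pairs of libraries had between 4 and 10 cell barcodes in common. Cells clustered without any gene of the pathway fell into 9 clusters, of which 5 were macrophage-like, holding 14510 cells. A further 980 cells were cycling-like, 217 dendritic cell-like, 86 neutrophil-like and 13 stromal-like. At least 6 of the 10 macrophage markers were detected in 50% or more of the cells in each cluster from A to F, so the culture carried the markers of its label.

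At 1 hour, none of the 9 genes passed a 2-fold difference from Ctrl. Of all 7747 genes with at least 10 CPM in Ctrl or LP1, 1.16% did, 0.697% higher and 0.465% lower. The 2 largest differences at this time were a lower level of *Inpp5d* and a higher level of *Akt1*. At 4 hours, 3 of the 9 genes were more than 2-fold lower than in Ctrl, namely *Pik3cb*, *Inpp5d* and *Pik3r1*, and 0 were more than 2-fold higher. Among all 8019 genes measured in this comparison, 9.91% were more than 2-fold lower and 10.6% more than 2-fold higher. The same 3 genes were also more than 2-fold lower in LP4 than in LP1, where 7.55% of 7956 genes were lower, 8.75% higher and 16.3% either. Against Ctrl, the 9 genes had a median log2 ratio of -0.05 at 1 hour and 0.28 at 4 hours, beside -0.02 and -0.07 for all genes, so the low values of 3 genes at 4 hours stood beside modestly higher values of 5 others. The plot of CPM by library shows each gene.

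**Figure D1:**
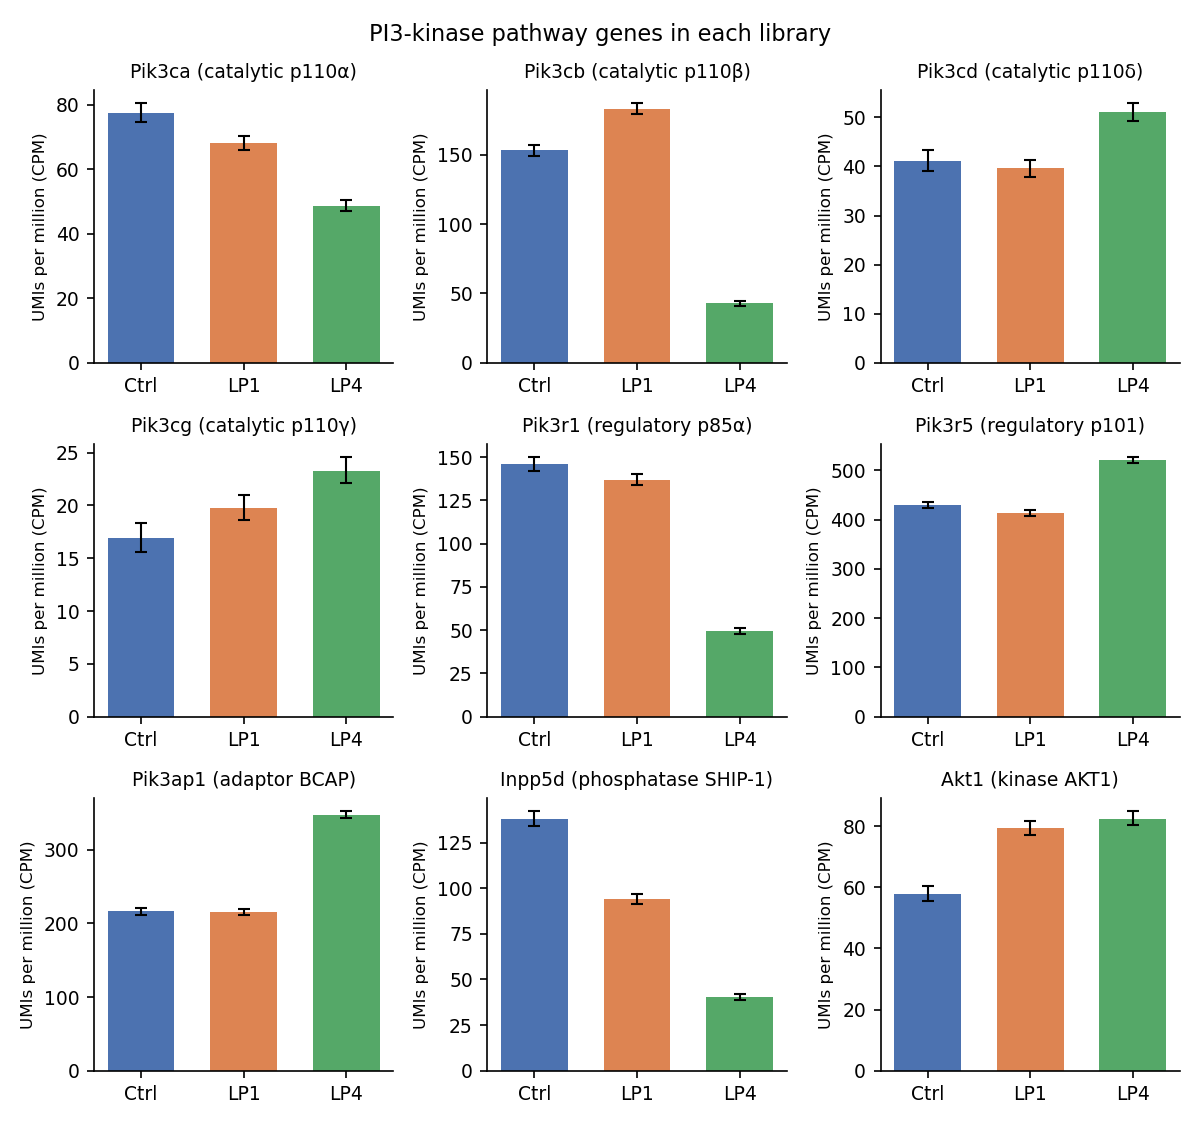
Level of the 9 genes in the Ctrl, LP1 and LP4 libraries, in CPM. Each bar is 1 library, error bars are 95% Poisson intervals for counting error, and each panel has its own axis from 0. *Pik3cb*, *Pik3r1* and *Inpp5d* stand lowest in LP4, at 42.7, 49.5 and 40.5 CPM, while *Pik3ap1* and *Pik3r5* stand highest there, at 348 and 521 CPM.

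The bases just before the start sites of the 3 genes that were lowest at 4 hours are shown because these genes had low values together. They come from the RefSeq promoter table of build GRCm38.p6, which held all 9 genes, and the stretches printed end at the base before the RefSeq start site and leave out exons. Capitals mark motif matches on either strand. The *Pik3cb* stretch lies at chr9:99140212-99140321 on the minus strand, inside an intron next to the first exon annotated by GENCODE, and its capitals mark the NF-kB motif (GGGA, any 4 bases, then CC). The *Pik3r1* stretch lies upstream of the gene at chr13:101768218-101768467 on the minus strand, and its capitals mark an NF-kB motif followed by the Egr motif GCGNGGGCG. The *Inpp5d* stretch lies upstream of the gene at chr1:87620062-87620311 on the plus strand, and its capitals mark the PU.1 motif GAGGAA.
Pik3cb: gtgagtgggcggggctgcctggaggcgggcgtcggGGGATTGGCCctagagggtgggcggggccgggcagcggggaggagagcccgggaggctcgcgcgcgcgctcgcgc
Pik3r1: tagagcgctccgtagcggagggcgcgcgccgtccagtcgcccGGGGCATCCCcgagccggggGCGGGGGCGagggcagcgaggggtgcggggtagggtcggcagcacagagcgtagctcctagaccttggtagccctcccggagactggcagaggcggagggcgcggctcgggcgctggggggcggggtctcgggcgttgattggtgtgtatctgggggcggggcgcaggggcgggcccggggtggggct
Inpp5d: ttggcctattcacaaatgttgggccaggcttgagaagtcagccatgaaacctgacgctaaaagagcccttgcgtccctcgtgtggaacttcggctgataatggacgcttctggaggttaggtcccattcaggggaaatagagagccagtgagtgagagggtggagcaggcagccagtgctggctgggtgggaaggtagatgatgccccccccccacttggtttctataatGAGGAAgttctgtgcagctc

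The 3 stretches had no motif in common. In the whole window of 250 bases before and 50 after the start site, *Pik3cb* held 1 NF-kB match, *Pik3r1* held 1 NF-kB and 1 Egr match, and *Inpp5d* held 2 PU.1 matches, the other one just after its start. Of 32544 promoters of the same length, 20.8% held the NF-kB motif, 5.60% the Egr motif and 28.1% the PU.1 motif. The motifs ISRE (GAAA, any 2 bases, then GAAA), AP-1 (TGANTCA), E-box (CACGTG) and CRE (TGACGTCA), found in 3.45%, 7.79%, 7.17% and 1.80% of promoters, had no match in these 3 windows. The same motifs were found in genes that were higher in LP4. *Akt1* held 1 NF-kB match in each of its 2 windows and 1 Egr match in the second. *Pik3cd* held 2 NF-kB matches in 1 of its 3 windows, and *Pik3ap1* held 1 PU.1 and 1 E-box match. The 2 windows of *Pik3cg* overlap, and its 2 PU.1 matches lie in the bases they share. *Pik3ca*, lower at 4 hours, held 1 AP-1 match, and *Pik3r5* held none. Matches to the NF-kB, Egr and PU.1 motifs thus stood in both lower and higher genes. Whether any motif bears on these levels was not tested. *Pik3r1* has a second RefSeq start site, whose window held no match to any of the 7 motifs. No motif here overlapped another.

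Among the catalytic genes, *Pik3cb*, which encodes p110β, had the largest difference. It lies on chromosome 9 (99036654 to 99140621, minus strand, GRCm38). Its level was 153 CPM in Ctrl, 183 CPM in LP1 and 42.7 CPM in LP4, from 5474, 9629 and 2624 UMIs. It was thus slightly higher at 1 hour, with a log2 ratio of 0.26 (0.21 to 0.31), and then the lowest of the 3 libraries at 4 hours. The log2 ratio of LP4 over Ctrl was -1.84 (-1.91 to -1.78), a 3.59-fold lower level that ranked 185th from the lowest of 8019 genes. Against LP1 the log2 ratio was -2.10 (-2.17 to -2.04), ranked 102nd from the lowest of 7956 genes. No other gene of the 9 was lower by more in that comparison.

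*Pik3ca*, which encodes the broadly expressed p110α, was lower at each time. Its level was 77.4 CPM in Ctrl, 68.0 CPM in LP1 and 48.6 CPM in LP4, and its log2 ratio against Ctrl went from -0.19 (-0.26 to -0.11) at 1 hour to -0.67 (-0.75 to -0.60) at 4 hours. The leukocyte subunits had the opposite direction at 4 hours. *Pik3cd*, which encodes p110δ, stood at 41.1, 39.6 and 51.0 CPM in Ctrl, LP1 and LP4. Its LP1 interval included no difference (-0.15 to 0.04), and its log2 ratio at 4 hours was 0.31 (0.22 to 0.40). *Pik3cg*, which encodes p110γ, stood at 16.9, 19.8 and 23.3 CPM, with log2 ratios of 0.23 (0.08 to 0.37) at 1 hour and 0.46 (0.33 to 0.60) at 4 hours. It had the fewest UMIs of the 9 genes, 3071 over the 3 libraries, and so the widest intervals.

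The split of catalytic UMIs over the 4 genes needs no scaling between libraries. *Pik3cb* made up 53.1% of them in Ctrl, 59.0% in LP1 and 25.8% in LP4 (24.9% to 26.7%, exact binomial interval), out of 10307, 16311 and 10173 UMIs. *Pik3cd* went from 14.2% in Ctrl to 30.8% in LP4, and *Pik3cg* from 5.85% to 14.1%. *Pik3ca* held 26.8%, 21.9% and 29.3%. In Ctrl and LP1, *Pik3cb* supplied more UMIs than the other 3 genes together, and in LP4 it supplied fewer than *Pik3cd* or *Pik3ca*. The summed level of the 4 genes was 289 CPM in Ctrl, 311 CPM in LP1 and 166 CPM in LP4. Class IA genes supplied 94.1%, 93.6% and 85.9% of the catalytic UMIs in the Ctrl, LP1 and LP4 libraries. UMI counts come from transcript 3' ends and can be captured unequally between genes, so these shares are compared between libraries and not as amounts of protein.

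**Figure D2:**
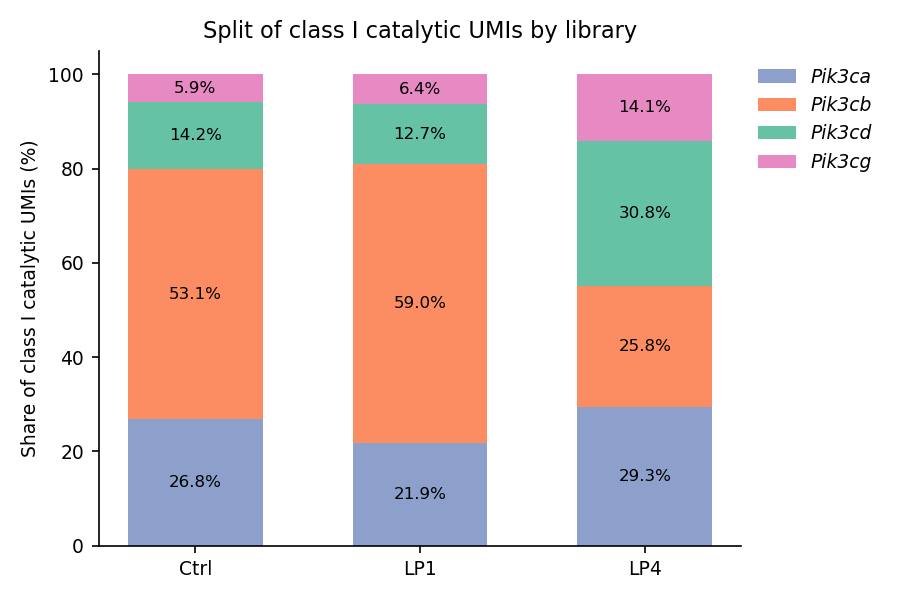
Share of the UMIs of the 4 class I catalytic genes supplied by each gene, as a percentage, in 1 stacked bar per library. The *Pik3cb* part shrinks from 53.1% in Ctrl and 59.0% in LP1 to 25.8% in LP4, while the *Pik3cd* and *Pik3cg* parts are larger in LP4 than in Ctrl.

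The regulatory genes divided between the classes. *Pik3r1* (chromosome 13, 101680563 to 101768217), which encodes p85α and its shorter forms, stabilises the class IA catalytic subunits and holds them inactive until a receptor is engaged. Its level was 146 CPM in Ctrl, 137 CPM in LP1 and 49.5 CPM in LP4. The first 2 libraries stood close together, with a log2 ratio of -0.09 (-0.14 to -0.04), and LP4 stood apart, with a log2 ratio of -1.56 (-1.62 to -1.49) against Ctrl, or 2.94-fold lower. *Pik3r2*, which encodes p85β and was not among the 9, stood at 18.4, 14.7 and 9.41 CPM, and its log2 ratio at 4 hours was -0.96 (-1.13 to -0.80). *Pik3r3*, which encodes p55γ, stayed below 10 CPM in each library.

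*Pik3r5* (chromosome 11, 68432121 to 68497849), which encodes the class IB subunit p101, had 430 CPM in Ctrl, 414 CPM in LP1 and 521 CPM in LP4. Its log2 ratio was -0.05 (-0.08 to -0.03) at 1 hour, a direction that turned with the scaling of the libraries, and 0.28 (0.25 to 0.30) at 4 hours. *Pik3r6*, which encodes p84, the other class IB partner, lies 5169 bases downstream on the same strand with no annotated gene between. It stood at 27.5, 21.0 and 104 CPM, a log2 ratio of 1.92 (1.82 to 2.02) at 4 hours, or 3.78-fold higher. At 4 hours both class IB regulatory genes were thus higher than in Ctrl, and both measured class IA regulatory genes were lower. *Pik3r2* was below 10 CPM in LP4 and passed that minimum only through Ctrl, so it could only be lower. The class IA side of the regulatory genes therefore rests on *Pik3r1*. *Pik3cg* had the direction of the class IB regulatory genes, and *Pik3cb* and *Pik3ca* had that of *Pik3r1*. *Pik3cd*, also of class IA, did not share the direction of the other class IA genes.

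*Pik3ap1* encodes BCAP, an adaptor that binds p85 and links Toll-like receptor signalling to PI3-kinase. Its level was 217 CPM in Ctrl, 216 CPM in LP1 and 348 CPM in LP4. Ctrl and LP1 could not be told apart at this depth, with a log2 ratio of 0.00 (-0.05 to 0.04), and the log2 ratio at 4 hours was 0.68 (0.64 to 0.72). This was the highest LP4 ratio of the 9 genes, and 82.9% of all genes tested had a lower one.

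*Inpp5d* (chromosome 1, 87620312 to 87720507) encodes SHIP-1, the phosphatase of blood cells that removes the 5-phosphate of PIP3 and so opposes class I PI3-kinase. Its level was 138 CPM in Ctrl, 94.2 CPM in LP1 and 40.5 CPM in LP4. At 1 hour its log2 ratio of -0.55 (-0.61 to -0.50) was the lowest of the 9 genes, and 3.18% of all genes had a lower one. At 4 hours the log2 ratio was -1.77 (-1.84 to -1.70), or 3.41-fold lower, and 2.56% of genes were lower. Its relative *Inppl1*, which encodes SHIP-2, stood at 61.7, 70.3 and 66.7 CPM, and its log2 ratio at 4 hours was 0.11 (0.04 to 0.19).

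*Akt1*, which encodes a PIP3-recruited kinase that carries the signal onward, had 58.0 CPM in Ctrl, 79.4 CPM in LP1 and 82.5 CPM in LP4. It was higher from the first hour, with a log2 ratio of 0.45 (0.38 to 0.53) that 93.1% of genes did not reach, and LP4 differed little from LP1, with a log2 ratio of 0.06 (0.00 to 0.12, an interval that includes no difference). *Akt2* stood at 48.9, 41.8 and 60.6 CPM. None of the 9 genes overlaps another counted gene.

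**Figure D3:**
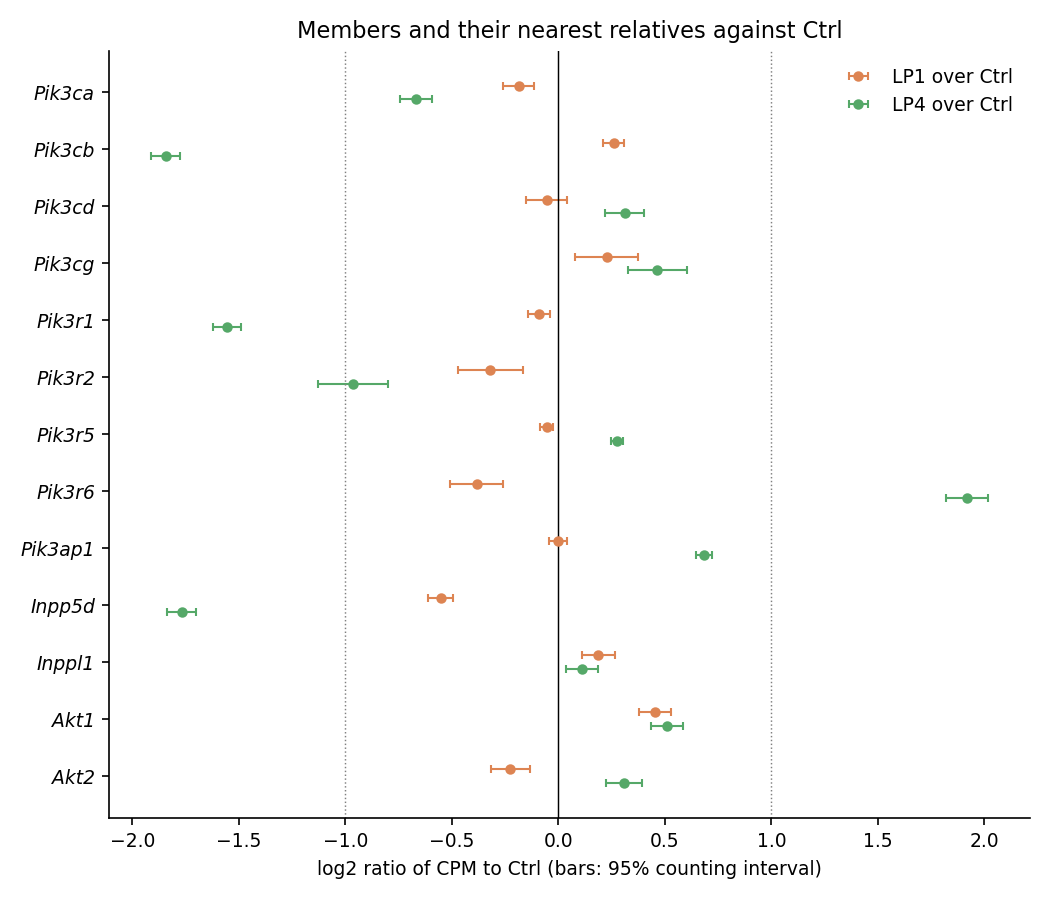
Log2 ratio of CPM to Ctrl for the 9 genes and their nearest relatives, with LP1 and LP4 as separate points, 95% counting intervals as bars and dotted lines at a 2-fold difference. The LP1 points lie within the dotted lines, and at 4 hours *Pik3cb*, *Pik3r1* and *Inpp5d* lie beyond the left line (-1.84, -1.56 and -1.77) and *Pik3r6* beyond the right one (1.92).

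CPM is a share of all mRNA captured, and the LP4 cells gave more UMIs each. For *Pik3cb*, the mean count per kept cell was 0.902 (Ctrl), 1.90 (LP1) and 0.562 (LP4). They were 0.857, 1.42 and 0.651 for *Pik3r1* and 0.812, 0.976 and 0.533 for *Inpp5d*, so these 3 genes were lowest in LP4 by this measure too, by less than in CPM. *Pik3ca* had 0.455, 0.704 and 0.639 UMIs per cell, so its lower CPM in LP4 was not a lower count per cell. For *Inpp5d* at 1 hour, too, CPM was lower than in Ctrl while the count per cell was higher. Deeper sequencing and more mRNA per cell cannot be told apart here.

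The shares of cells with at least 1 UMI were compared at 1 depth, 2000 UMIs drawn at random from every cell. Cells below that depth (122 in Ctrl, 13 in LP1, 45 in LP4) were dropped. *Pik3cb* was then found in 23.6% of Ctrl cells (22.5% to 24.7%, exact binomial interval), 29.2% of LP1 cells and 7.68% of LP4 cells (6.92% to 8.48%). Without thinning these shares were 49.4%, 71.6% and 35.0%. *Pik3r1* was found in 22.1%, 21.3% and 8.71% of thinned cells, and *Inpp5d* in 23.2%, 16.8% and 7.63%. *Pik3ap1* was found in 33.3%, 33.2% and 46.7%, and *Pik3r5* in 53.9%, 51.6% and 62.7%. The other 4 genes followed the order of their CPM, from 3.24% of Ctrl cells for *Pik3cg* to 15.4% of LP4 cells for *Akt1*. Without thinning, the *Inpp5d* shares were 46.3%, 51.6% and 34.6%, with *Pik3r1* at 45.0%, 57.1% and 38.8%, *Pik3ap1* at 60.8%, 77.9% and 90.6%, and *Pik3r5* at 79.4%, 91.1% and 96.7%. In the 13 stromal-like cells, *Inpp5d* had 3 UMIs, or 13.2 CPM (2.71 to 38.4), at a median depth of 14193 UMIs. Free RNA or doublets in that small group were not tested.

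The low LP4 values of the 3 genes were spread over the clusters compared. These clusters divide the same cells of the same libraries by which the 3 genes were picked, so they are no independent check. Clusters A to F, the ones compared, held no fewer than 50 cells per library. A to D were macrophage-like (4427, 4401, 3534 and 1988 cells), D being led also by DNA replication genes such as *Mcm3*, E was cycling-like and F dendritic cell-like. *Pik3cb* was lower in LP4 than in Ctrl in 6 of 6 clusters, with log2 ratios from -2.45 in D to -1.30 in B. *Pik3r1* was lower in 6 of 6, from -2.94 in B to -0.89 in F, and *Inpp5d* in 6 of 6, from -3.46 in F to -1.13 in D. For each of the 18 ratios the counting interval lay below zero.

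The clusters also differed in level. *Pik3r1* stood at 261 CPM in cluster B of Ctrl, a cluster led by *Egr3*, *Ms4a6b* and *Apoe*, and between 86.4 and 132 CPM in the other 5. In LP4 it stood at 33.9 CPM in B and between 44.8 and 62.5 CPM in the others, so the cluster with the highest level in Ctrl had the lowest in LP4. *Inpp5d* was likewise highest in B in Ctrl, at 229 CPM, and stood at 33.2 CPM there in LP4. *Pik3cb* was instead lowest of the 6 in B in Ctrl, at 83.5 CPM. Its highest Ctrl level was 203 CPM in C, a cluster led by *Mgll*, *Eef1a2* and *Mmp9*. *Pik3ca* also was highest in B in Ctrl, at 129 CPM, against 43.1 to 76.8 CPM elsewhere, and its LP4 ratio was lowest there, at -1.25. That ratio was below zero in 5 of 6 clusters, with the interval below zero in 4, and stood at 0.09 in F. At 1 hour *Pik3ca* was lower in 4 of 6 clusters, with the interval below zero in 2.

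In LP1, *Pik3cb* was higher than Ctrl in 6 of 6 clusters (0.08 in F to 0.42 in B), *Inpp5d* was lower in 6 of 6 (-0.65 in C to -0.33 in D) and *Akt1* was higher in 6 of 6 (0.44 in C to 0.49 in A). In F, which had 86 Ctrl, 68 LP1 and 63 LP4 cells, the intervals of these 3 ratios included no difference. *Pik3r5* was higher in LP4 in 6 of 6 clusters, from 0.11 in C to 0.51 in B. *Pik3r6* was higher in 6 of 6, from 1.05 in E to 2.68 in D. *Pik3cd* was higher in 5 of 6, but only in C and D did the interval lie above zero (0.67 in C). *Pik3cg* was higher in 5 of 6 and was level in B, at 12.5 CPM in Ctrl and 11.7 CPM in LP4.

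**Figure D4:**
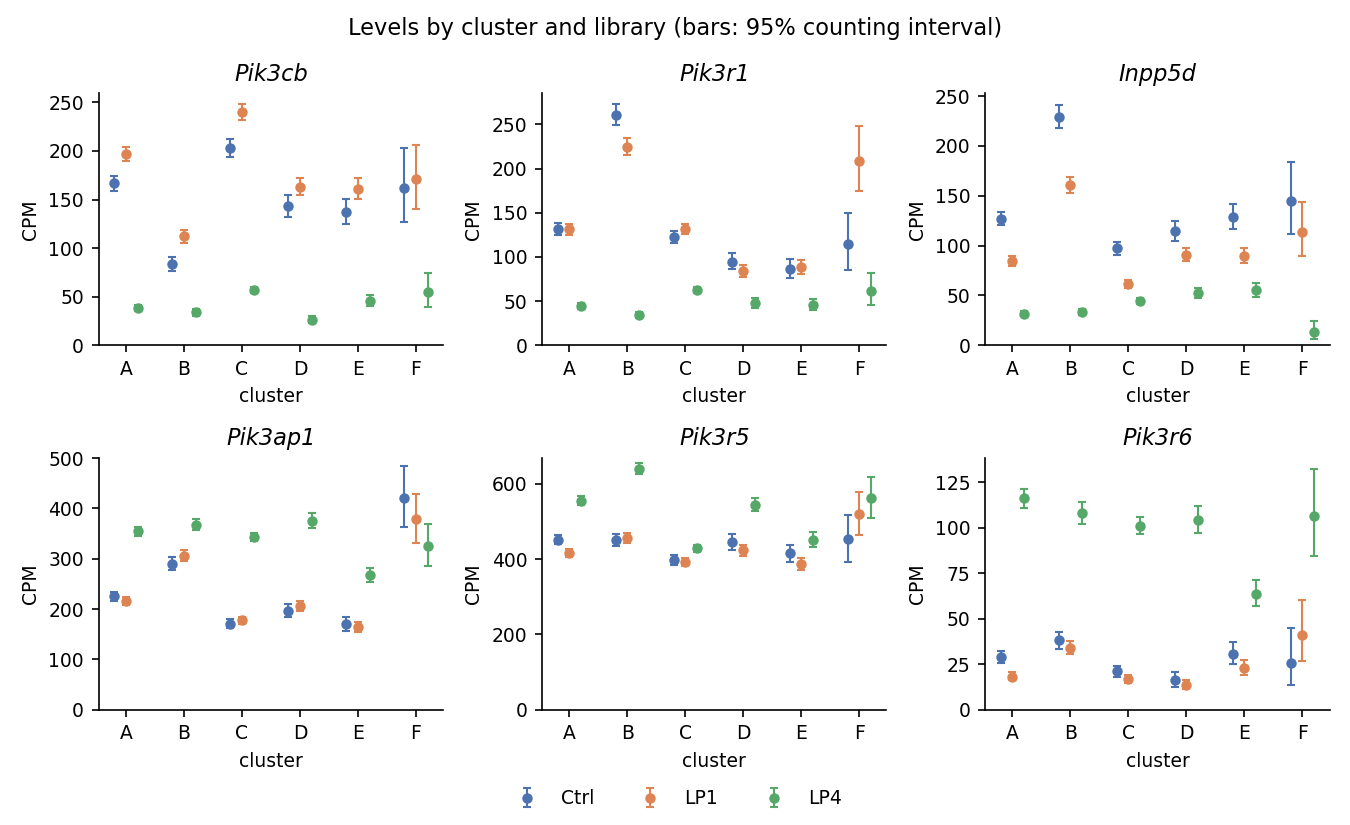
Level in CPM of 6 genes in clusters A to F, with 1 point per library and 95% counting intervals as bars. *Pik3cb*, *Pik3r1* and *Inpp5d* are lowest in LP4 in 6 of 6 clusters, *Pik3r6* and *Pik3r5* are highest in LP4 in 6 of 6, and *Pik3ap1* is highest in LP4 in all but F, where it stands at 420 CPM in Ctrl and 326 CPM in LP4.

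The few cells of other types differed from the macrophages in these genes. Pooled over libraries, 86 neutrophil-like cells had 88.0 CPM of *Pik3cg* (63.9 to 118), against 20.4 CPM in the macrophage-like cells, and 22.0 CPM of *Pik3r5* (11.0 to 39.4), against 468 CPM. They had 128 CPM of *Pik3r6*, against 58.1 CPM, and 218 CPM of *Inpp5d*, against 81.9 CPM. The pooled *Pik3r6* values mix libraries that differ. At 2000 UMIs per cell it was found in 19.0% (Ctrl), 14.3% (LP1) and 20.7% (LP4) of neutrophil-like cells, on 4, 3 and 6 cells. The macrophage-like shares were 4.84%, 3.71% and 17.8%, so the 2 types stood close in LP4. With so few neutrophil-like cells in each library (25 to 32), they supplied 109 of the *Inpp5d* UMIs against 10892 from macrophage-like cells. By library, *Inpp5d* was found in 5 of 21 Ctrl, 6 of 21 LP1 and 12 of 29 LP4 neutrophil-like cells at 2000 UMIs per cell, or 23.8% (8.22% to 47.2%), 28.6% (11.3% to 52.2%) and 41.4% (23.5% to 61.1%). The macrophage-like cells had 23.4%, 17.0% and 7.23%, so the 2 types stood close in Ctrl and apart in LP4. Unthinned, the shares were 37.5%, 52.0% and 75.9% in neutrophil-like and 45.7%, 50.8% and 33.0% in macrophage-like cells. The low LP4 share of *Inpp5d* was thus not seen in the neutrophil-like cells, and the difference between the types was not tested. In the same thinned cells *Pik3cb* was found in 14.3% (Ctrl), 19.0% (LP1) and 13.8% (LP4), and *Pik3r1* in 14.3%, 9.52% and 10.3%. These shares rest on 2 to 4 cells with a UMI per library. Without the other cell types the log2 ratios of LP4 over Ctrl kept their signs for the 9 genes.

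The wider pathway was read from a list of 77 genes in 12 roles, the 9 genes included. At 1 hour, 63 passed 10 CPM and 0 passed a 2-fold difference. Among those with the largest ratios were *Rheb*, the GTPase that switches on mTORC1, at 0.81 (44.0 CPM in Ctrl and 77.1 CPM in LP1), and *Gab1*, an adaptor that docks p85, at -0.58. At 4 hours, 65 passed 10 CPM, of which 8 were more than 2-fold higher and 8 more than 2-fold lower, together 24.6% against 20.5% of all genes tested, so the count lay close to that of genes in general. At 1.5-fold, 9 genes were higher and 18 lower, but the share of all genes past that fold was not counted. At any size of difference, 30 of the list genes tested were higher and 35 lower, beside 3693 higher and 4326 lower of all genes tested. The median log2 ratio of the list was -0.21, beside -0.07 for all genes.

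The genes of this list beyond 2-fold at 4 hours included both directions in 3 roles, the regulatory subunits, the phosphatases and the genes listed as brakes on AKT. Among phosphatases, *Inpp5b* stood at 7.06 CPM in Ctrl and 42.0 CPM in LP4, the highest ratio of the list at 2.57 (2.39 to 2.76), and *Synj1* at 102 and 204 CPM, while *Inpp5d* was lower. Among the genes listed as brakes on AKT, *Trib1* stood at 110 CPM in Ctrl and at 16.4 CPM after 4 hours. Its ratio was the lowest of the list, at -2.75 (-2.85 to -2.65). Whether *Trib1* acts on AKT in these cells was not tested. *Phlpp2*, a phosphatase of AKT in the same role, stood at 7.96 CPM in Ctrl and 28.2 CPM in LP4, a ratio of 1.83. *Inpp5b* and *Phlpp2* were below 10 CPM in Ctrl and passed that minimum only through LP4, so they could only be higher. Beyond 2-fold, the higher direction among the brakes rests on *Phlpp2* alone. *Foxo3*, a transcription factor that AKT holds out of the nucleus, had a ratio of -1.88, and *Gab3*, an adaptor, -2.30. *Foxo3* and *Gab3* were below 10 CPM in LP4 and passed only through Ctrl, so they could only be lower. *Sgk3*, a kinase related to AKT, and *Pikfyve*, which makes PI(3,5)P2, were higher, at 1.53 and 1.34, as was *Rheb* at 1.23. *Dapp1* and *Tec*, which bind PIP3, were lower, at -1.32 and -1.14.

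**Figure D5:**
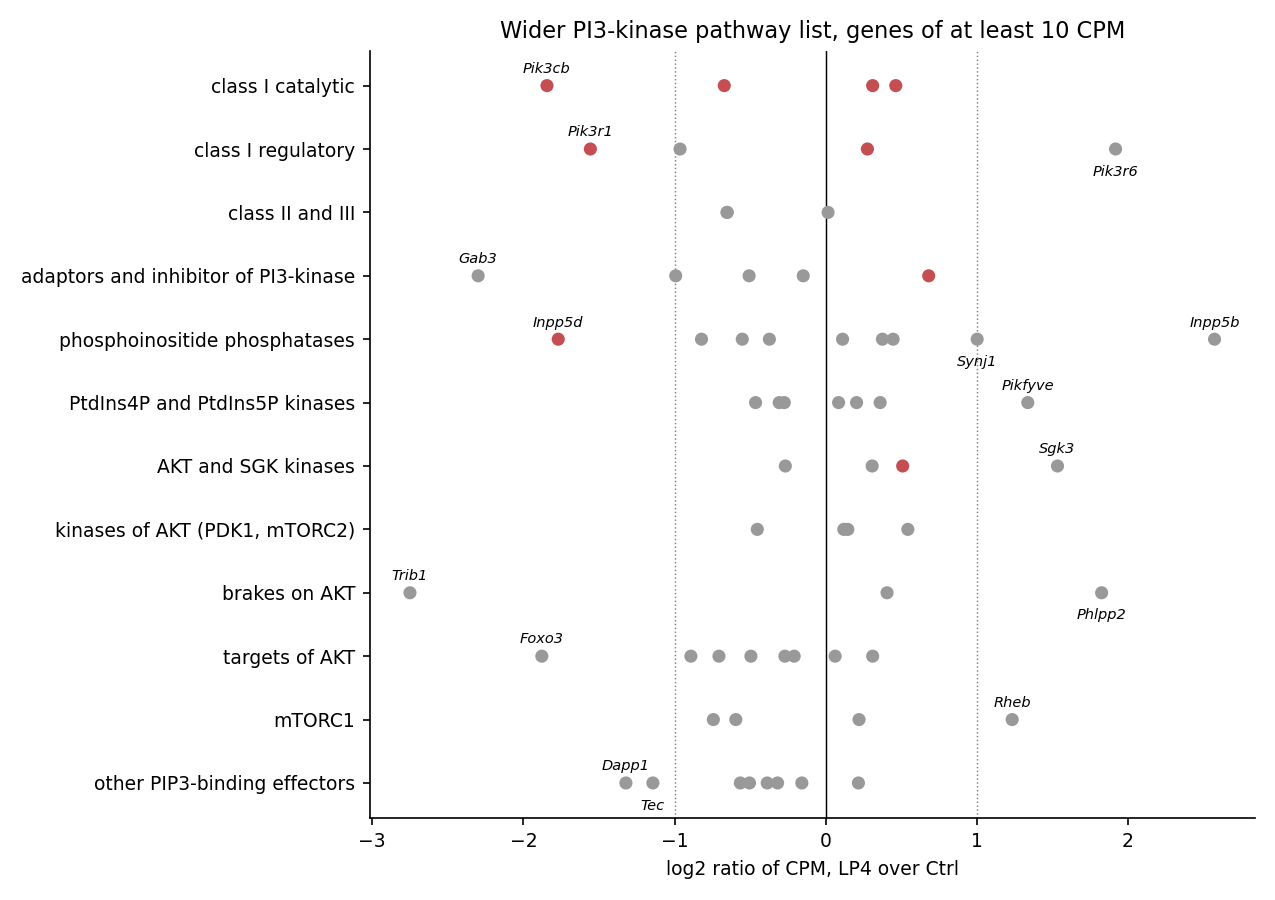
Log2 ratio of LP4 over Ctrl for genes of the wider list with at least 10 CPM in either library, 1 point per gene, grouped by role. A few genes of the list are not shown. Red points are the 9 genes, grey points the others, dotted lines mark a 2-fold difference, and genes beyond a line are named, from *Trib1* at -2.75 to *Inpp5b* at 2.57.

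Over the 18 combinations of clusters A to F with the 3 libraries, the genes whose log2 level ran most closely with *Pik3cb* among 8098 genes were *Plk2*, *Acsl3*, *Rgs2*, *Cln8* and *Utp14b*, with Pearson correlations of 0.95 to 0.96. *Plk2*, a kinase, stood at 197 CPM in Ctrl, 260 CPM in LP1 and 60.8 CPM in LP4, and *Rgs2*, a regulator of G protein signalling, at 167, 191 and 20.5 CPM. For *Inpp5d* they were *Rxrb*, *Dglucy*, *Rbfa*, *Stard9* and *Fli1*, with correlations of 0.96 to 0.97. *Fli1*, an ETS transcription factor of blood cells, stood at 117, 92.1 and 44.7 CPM. Within the 9 genes, *Pik3r1* correlated with *Inpp5d* at 0.77 and with *Pik3ca* at 0.76, *Pik3r5* with *Pik3ap1* at 0.76, and *Pik3cb* with *Pik3r5* at -0.74. The 18 points share 3 libraries and their depths, so these values describe the libraries and carry no p-value.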

How the data were processed

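Gene by barcode UMI counts were used as deposited; the authors made them with Cell Ranger (7.1.0 in the submitters' processing notes) on mouse mm10, and whether introns were counted is not given in the sources used here. Cells with over 500 UMIs, over 500 genes and under 5% mitochondrial UMIs were kept, the limits the study states. These left 15806 cells, more than the number the study gives after its filters, and the further step behind that difference is not given in the sources used here. UMIs were summed per library and scaled to CPM. Doublets were not removed. No test was run, since each of the 3 conditions had 1 library. Genes with at least 10 CPM in 1 of the 2 libraries compared were counted past a fold of 2.

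Clustering (scanpy 1.11.5, Leiden resolution 0.5, 2000 variable genes centred within library, 20 neighbours, 30 components) left out the pathway genes. Mitochondrial and ribosomal genes were left out too, as were genes that differed by 1.5 times or more in CPM between libraries. The variable genes came from the 5200 that remained, so states marked only by other genes could not form clusters. A name needed 3 markers: those of other types among the 10 leading genes, or macrophage markers in 50% of cells. The smallest macrophage-like cluster, G (160 cells), led by *Ddit3*, had a median depth of 0.343 times that of its libraries. Gene positions are from GENCODE vM21. The genes named were the 9, their nearest relatives, the 6 list genes with the largest ratio in each direction per comparison and the 5 closest in pattern to 2 of the 9. *Synj1*, *Dapp1* and *Tec* complete the 2-fold counts of the list and were named after their values were seen. The members and lists were chosen with earlier results of these data known. Alternatives covered scaling (edgeR 4.0.16 TMM, median of ratios), filters, weighting, doublets, thinning and resolution. Some genes of the list are not reported here. Scripts were tested on simulated data.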

Additional observations from a re-analysis of the deposited data

Results flagged for a closer look

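*Pik3r1* at 1 hour differed in direction between clusters. In cluster B its log2 ratio of LP1 over Ctrl was -0.22 (-0.31 to -0.12), from 261 to 225 CPM, and in the dendritic cell-like cluster F it was 0.87 (0.40 to 1.36), from 114 CPM on 53 UMIs to 209 CPM on 132 UMIs. Both counting intervals exclude no difference, on opposite sides, and the difference between the clusters was not tested.

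*Pik3ap1* at 4 hours also had opposite directions. In cluster F its log2 ratio of LP4 over Ctrl was -0.37 (-0.64 to -0.09), from 420 to 326 CPM, and in cluster C it was 1.01 (0.93 to 1.08). The other 4 clusters had ratios above zero. With 1 library per condition this difference was not tested either, and F held only 86 Ctrl and 63 LP4 cells.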

How the results depend on the processing

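Over 9 alternatives the log2 ratio of LP4 over Ctrl ranged from -2.09 to -1.64 for *Pik3cb*, -1.92 to -1.56 for *Inpp5d* and -1.76 to -1.35 for *Pik3r1*, and the 9 genes kept their direction at 4 hours against Ctrl. At 1 hour *Pik3r5* turned to 0.017 under TMM and to 0.021 under median of ratios, and *Pik3r1* turned to 0.093 in cells of 5000 to 15000 UMIs, an alternative chosen after seeing the data. In the same cells the LP1 ratio of *Pik3ca* was -0.026, outside its counting interval and near no difference. Small LP1 ratios of *Pik3cd* and *Pik3ap1*, whose intervals include zero, also changed sign. The median of all genes for LP4 over Ctrl moved from -0.07 to 0.10 under TMM and 0.13 under median of ratios. For the 9 genes it moved likewise to 0.45 and 0.48, and for LP4 over LP1 to 0.15 and 0.19. In cells of 5000 to 15000 UMIs it was 0.093 for LP1 and 0.24 for LP4 against Ctrl. List counts at 1.5-fold were 1 higher and 0 lower at 1 hour. At 4 hours they were 9 higher and 18 lower against Ctrl, and 9 higher and 13 lower against LP1. The share of all genes at 1.5-fold was not counted, so these uneven counts are not read as a trait of the list. At 50 CPM the lower counts were 5 and 4, and 6 genes were higher at 4 hours against Ctrl. With 20 UMIs as the minimum, 1 gene was lower at 1 hour. Shares of all genes at these minima were not counted, so these counts are not read as a trait either. Weighting cells equally gave *Pik3cb* 50.9% of catalytic UMIs in Ctrl and 57.5% in LP1. Its share of Ctrl, LP1 and LP4 cells was 13.5%, 15.5% and 4.02% at 1000 UMIs, 42.6%, 47.2% and 13.8% at 4000 and 49.4%, 71.6% and 35.0% unthinned, which follows from the depth. At resolution 0.3 its lowest cluster ratio was -2.20. The cause of the other changes was not tested. No paired analysis was possible because each condition is 1 library, and for the same reason no library could be left out. Counting intervals do not cover the spread between cultures.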

Other observations

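*Rab7b*, a GTPase of late endosomes that the study places beside *Pik3cb*, stood at 416 CPM in Ctrl, 344 CPM in LP1 and 82.7 CPM in LP4. Its log2 ratio was -0.27 (-0.31 to -0.24) at 1 hour, where *Pik3cb* was higher, and -2.33 (-2.38 to -2.29) at 4 hours.

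*Pik3r6*, the class IB partner that was higher at 4 hours, was found in 4.93%, 3.90% and 17.5% of the Ctrl, LP1 and LP4 cells at 2000 UMIs per cell.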
